A study of Homo sapiens with 38 samples.

Results

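The step from day 4 to day 6 of capacitation in E8 medium was represented by 4 of the 38 libraries of the series, 2 of Shef6 cells at day 4 in E8 on Geltrex and 2 at day 6, chosen by the medium, matrix and day given in their labels. Shef6 is a line of human embryonic stem cells (hESCs). The cells had been adapted to grow in the naive state on a serum coating in PXGL, a medium that combines inhibitors of MEK, tankyrase and PKC with LIF, and every group used here descended from these cells. They were plated on Geltrex, a basement membrane matrix, and given E8, a defined medium with FGF2 and TGFβ, in place of the naive medium. The same days in N2B27, a basal medium without added growth factors, and in mTeSR, another medium made for primed cells, served as comparisons with 2 libraries per day and medium. E8 at day 3 and day 8 gave the values on either side of the step. Only 1 line and 1 experiment stand behind these groups. The 2 libraries of a group were called technical replicates in some parts of the study and biological in another. The p-values rest on the spread between libraries of a group, pooled in 1 fit over all 19 groups of the series. This spread may be technical.

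Capacitation is the passage of naive pluripotent cells, which resemble the epiblast before implantation, towards a formative and then primed state that can respond to lineage cues. In primed human cells the Activin, Nodal and TGFβ pathway maintains pluripotency, and it induces its own secreted inhibitors, the LEFTY proteins. Together with BMP and WNT signals the same pathway switches on primitive streak genes at gastrulation.

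RNA was measured with QuantSeq, which reads each transcript near its polyadenylated end, and levels are in CPM, a count divided by its library size and multiplied by a constant, with no scaling to transcript length. The 4 libraries held 4794336 and 5104628 counts at day 4 and 4180778 and 4424268 counts at day 6, with 23769 to 24645 genes detected. Mitochondrial genes took 3.095% and 3.12% of counts at day 4 and 2.78% and 2.79% at day 6. Each library was most like its partner of the same day, with a Pearson correlation across 16674 genes of 0.984 at day 4 and 0.983 at day 6. Markers of pluripotent cells, a list of 8 genes, summed to 5088 to 5115 CPM at day 4 and 4649 to 4759 CPM at day 6, none of them at or under 3 counts. In bulk libraries, fewer cells of a type and less RNA per cell cannot be told apart.

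Between day 4 and day 6, 419 of 16674 genes tested passed a Benjamini-Hochberg adjusted p of 0.05 together with a 2-fold change, which is 2.51% of all genes (edgeR quasi-likelihood test). Of these, 329 genes were higher at day 6 (1.97%) and 90 were lower (0.54%). The rises covered LEFTY1 and LEFTY2 of Nodal feedback, part of the streak genes, BMP4, part of the primed markers, some muscle-type actins and their partners, and some collagens. SUSD2 was the only gene of the naive list among the falls. The median log2 fold change over all genes tested was 0.02, and libraries of the 2 days did not overlap for 56.7% of genes. Of the genes called, 105 of the 329 that rose and 17 of the 90 that fell reached 20 CPM on the higher day without overlap. A count of calls depended on the test, since DESeq2 called 262 genes and leaving out 1 of the 4 libraries left 227 to 294. The lower calls moved most, to between 39 and 52 with 1 library left out, to 146 without a filter on low counts and to 208 when the 4 libraries were fitted alone.

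The Nodal feedback genes LEFTY1 and LEFTY2 were called higher at day 6 than at day 4, after a drop from their naive level. NODAL passed the adjusted p alone. In naive cells on Geltrex NODAL was at 217 ± 1.91 CPM, LEFTY1 at 81.9 ± 6.66 CPM and LEFTY2 at 121 ± 0.385 CPM (mean ± SD, 2 libraries), and at day 2 in E8 at 39.3 ± 0.558, 9.86 ± 0.439 and 0.885 ± 1.25 CPM. NODAL, the ligand (chr10:70431936-70447951, minus strand), was read at 88.98 and 105 CPM at day 4 and 151 and 158 CPM at day 6. Its change was 1.59-fold, within the adjusted p threshold, which 4.8% of all genes passed upwards and 2.05% downwards, and under the 2-fold limit (log2 0.67, SE 0.16, adjusted p = 0.009). LEFTY1, a secreted inhibitor of NODAL (chr1:225886282-225911382, minus strand), stood at 27.2 and 26.03 CPM at day 4 and 94.4 and 102 CPM at day 6. Both day 6 libraries were far above both day 4 libraries, a 3.69-fold rise (log2 1.88, SE 0.20, adjusted p = 7.6e-08). Its neighbour and close copy LEFTY2 (chr1:225936598-225941383, minus strand) had 6 and 12 counts at day 4 and 59 and 66 at day 6, or 1.25 and 2.37 CPM at day 4 and 14.2 and 15.02 CPM at day 6. The fitted change of LEFTY2 was 7.92-fold (log2 2.99, SE 0.45, adjusted p = 3.5e-05), and how the counting divided reads between the 2 LEFTY genes is not known. The adjusted p of NODAL was over 0.05 when 1 library was left out, namely for NODAL without day 4 replicate 1 (0.17), day 6 replicate 1 (0.053) or day 6 replicate 2 (0.08).

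INHBA, the subunit that forms Activin A, rose from 3.97 and 4.54 CPM to 12.3 and 15.9 CPM (log2 1.73, SE 0.34, adjusted p = 0.0012). FST, which binds and blocks Activin, was at 12.1 and 11.6 CPM at day 4 and 21.98 and 21.2 CPM at day 6, a change within the adjusted p threshold but under 2-fold (log2 0.86, adjusted p = 0.023). The machinery that receives the signal gave other values. The co-receptor TDGF1 was at 275 and 276 CPM at day 4 and 247 and 259.97 CPM at day 6 (log2 -0.12), and FOXH1, the DNA-binding partner of the SMAD proteins, at 111 and 126 CPM at day 4 and 122 and 117 CPM at day 6 (log2 0.01). None of the receptors ACVR1B, ACVR2A, ACVR2B and TGFBR1 passed the test, with log2 values of -0.03, -0.23, 0.15 and 0.0029. Of the 14 tested genes in the list of Nodal ligands, co-receptors and inhibitors, 3 were called higher and 0 lower, beside 1.97% and 0.54% of all genes. Their median log2 was 0.08, or 0.12 with bounds for genes at the floor, beside 0.02 for all genes. FST did not hold its adjusted p, which was over 0.05 for FST in each of the 4 omissions (0.098 to 0.14).

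Among 11 genes listed as Activin, Nodal and TGFβ targets, 3 were called higher and 0 lower, beside 1.97% and 0.54% of all genes. Their median log2 was 0.67, or 0.57 with the gene at the floor on 1 day set to its bound. The called members were LEFTY1, LEFTY2 and the homeobox gene MIXL1. MIXL1 went from 3.97 and 4.34 CPM to 14.7 and 12.98 CPM (log2 1.73, SE 0.31, adjusted p = 3.2e-04). PMEPA1, a TGFβ target, was at 43.03 and 50.3 CPM at day 4 and 67.9 and 71.3 CPM at day 6, within the adjusted p threshold and under 2-fold (log2 0.57). CER1, a further NODAL inhibitor, had 0 counts in 3 of the 4 libraries and 6 in day 6 replicate 2. SKIL and SMAD7, both feedback targets of the pathway, gave log2 values of 0.07 and 0.11 and did not pass the test. The adjusted p was over 0.05 for PMEPA1 in each of the 4 omissions (0.097 to 0.36).

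Primitive streak genes moved unevenly. TBXT, the Brachyury factor of the streak and early mesoderm (chr6:166157656-166168700, minus strand), was at 3.97 and 5.72 CPM at day 4 and 29.7 and 27.1 CPM at day 6. That is a 5.81-fold rise with no overlap between the days (log2 2.54, SE 0.27, adjusted p = 2.0e-07). EOMES, a T-box factor of the early streak, gave 0 and 4 counts at day 4 and 21 and 27 at day 6 (log2 3.704, SE 0.60, adjusted p = 1.0e-04). Its fitted fold rests on few counts at day 4, with log2 2.79 without day 4 replicate 1 and 7.65 without day 4 replicate 2, and its call held in the 4 omissions. With MIXL1 these were 3 of 12 tested genes of the list called higher and none was called lower, beside 1.97% and 0.54% of all genes. The list's median log2 was -0.27, or -0.13 with genes at the floor on 1 day set to their bounds and 1 at the floor on both days left out. The streak and node gene GSC had 2 and 4 counts at day 4 and 10 and 9 at day 6 and did not pass the test. FOXA2 had 1 and 1 and 1 and 0 counts, and TBX6 and MESP1, which mark later mesoderm, were at or under 3 counts in the 4 libraries and were not tested. Summed over 4 mesoderm markers, the libraries reached 9.19 to 10.3 CPM at day 4 and 40.3 to 44.4 CPM at day 6, nearly all of it from TBXT and MIXL1, since the other 2 were at the floor.

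The promoter of MIXL1 holds 1 copy of the sequence bound by FOXH1, spelled AATCCACA or AATGCACA and searched on both strands over the 250 bases before the annotated start. It is shown because MIXL1 was the only called gene of the Nodal target and streak lists in whose promoter the motif was found. In the RefSeq promoter table (GRCh38.p14), 1.44% of 35116 promoters hold the motif. It was found in at least 1 promoter of 1.24% of 10818 tested genes and of 2.94% of 238 genes called higher, that is 7 genes. NODAL, CER1, EOMES, INHBA and TBXT had a promoter in the table and no match, while LEFTY1 and LEFTY2 had none in it. Capitals mark the motif in the sequence, at chr1:226223414-226223663, plus strand.
MIXL1: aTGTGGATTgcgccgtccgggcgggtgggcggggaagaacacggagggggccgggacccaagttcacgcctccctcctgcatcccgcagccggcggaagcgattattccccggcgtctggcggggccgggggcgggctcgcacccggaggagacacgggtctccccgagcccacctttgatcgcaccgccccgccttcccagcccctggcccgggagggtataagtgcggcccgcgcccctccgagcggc

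BMP4 (chr14:53949736-53958761, minus strand) is the ligand that induces mesoderm and amnion in human pluripotent cells. It was among the 15 largest rises of called genes with at least 20 CPM and no overlap. It stood at 56.8 and 65.3 CPM at day 4 and 216 and 213 CPM at day 6, with day 6 libraries within a few CPM of each other. The rise was 3.51-fold (log2 1.81, SE 0.13, adjusted p = 8.6e-11). It was the 1 called gene among 17 tested BMP ligands, targets and inhibitors, where 2.51% of all genes were called. The median log2 of this list was 0.52. The direct target ID2 was at 14.6 and 14.4 CPM at day 4 and 22.9 and 27.3 CPM at day 6 (log2 0.79, adjusted p = 0.01) and the inhibitory SMAD6 at 19.2 and 24.5 CPM at day 4 and 38.9 and 33.5 CPM at day 6 (log2 0.72, adjusted p = 0.023), both under the 2-fold limit. ID1 and ID3, other early targets, gave log2 values of -0.22 and 0.18, and the BMP-induced factors MSX1 and MSX2 gave 0.10 and 0.65, none of them past the test. BMP2 had 3 and 2 counts at day 4 and 0 and 3 at day 6. With 1 library left out the adjusted p was over 0.05 for ID2 without day 4 replicate 1 (0.084), day 4 replicate 2 (0.083) or day 6 replicate 2 (0.15) and SMAD6 without day 4 replicate 1 (0.29), day 6 replicate 1 (0.23) or day 6 replicate 2 (0.057).

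**Figure D1:**
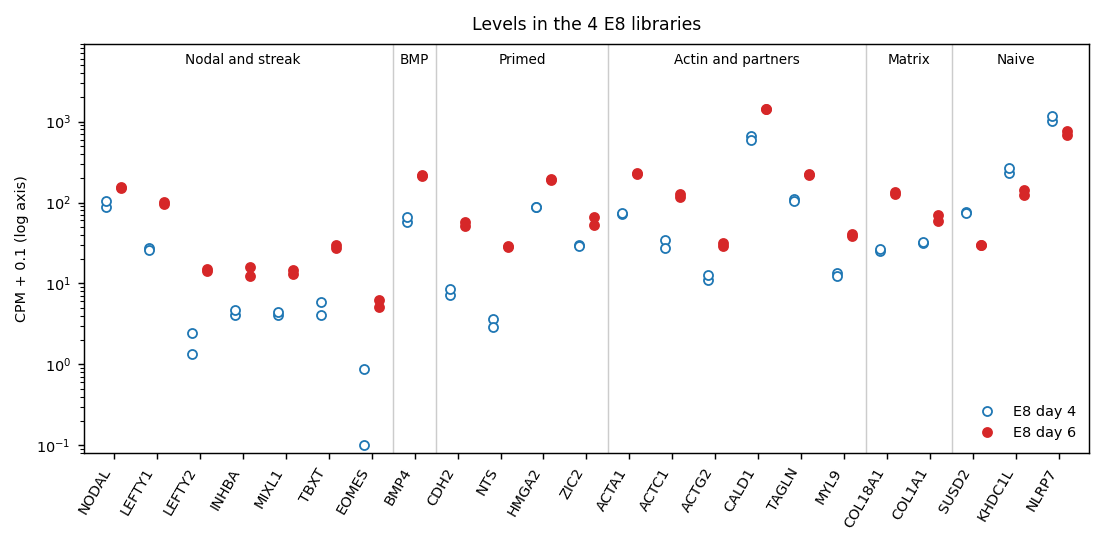
CPM plus 0.1 on a log axis for 23 genes in the 4 E8 libraries, open circles for the 2 libraries of day 4 and filled circles for those of day 6. The days do not overlap for any of these genes, which also holds for 56.7% of all genes tested. BMP4 goes from 56.8 and 65.3 CPM to 216 and 213 CPM, and the 3 naive genes at the right are lower at day 6.

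Of 27 tested primed or formative markers, 6 were called higher and 0 lower, beside 1.97% and 0.54% of all genes, with a median log2 of 0.35. CDH2, N-cadherin (chr18:27932879-28177946, minus strand), was at 7.101 and 8.48 CPM at day 4 and 50.96 and 57.8 CPM at day 6, a 6.95-fold rise (log2 2.797, SE 0.19, adjusted p = 3.2e-11). NTS, the precursor of neurotensin, went from 3.55 and 2.76 CPM to 27.8 and 28.9 CPM and had the largest fold of the genes above 20 CPM (log2 3.16, SE 0.25, adjusted p = 3.9e-10). Both were near the floor in naive cells on Geltrex, at 0.202 ± 0.0311 CPM for CDH2 and 0.0902 ± 0.128 CPM for NTS (mean ± SD, 2 libraries). HMGA2, a chromatin protein of embryonic cells, was at 87.1 and 88.4 CPM at day 4 and 189 and 197 CPM at day 6 (log2 1.14, SE 0.12, adjusted p = 7.6e-08). The remaining called members were the transcription factors ZIC2 (log2 1.01) and ZIC5 (log2 1.299) and the endothelin receptor EDNRB (log2 1.07).

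Not all primed markers rose. The WNT receptor FZD7 and the factor SOX3 passed the adjusted p under 2-fold, at log2 0.83 and 0.68. SFRP2, a secreted WNT antagonist, was lower at day 6, at 74.4 and 75.1 CPM at day 4 and 44.7 and 38.9 CPM at day 6 (log2 -0.84, adjusted p = 3.3e-04). Small values were given by 3 markers already at high levels by day 4, with PTPRZ1 at 93.8 and 100.4 CPM at day 4 and 99.98 and 106 CPM at day 6, SOX11 at 234 and 242 CPM at day 4 and 227 and 255 CPM at day 6 and THY1 at 92.3 and 83.2 CPM at day 4 and 83.8 and 87.4 CPM at day 6. In naive cells on Geltrex these 3 genes were at 0 ± 0, 0.788 ± 0.162 and 0.112 ± 0.159 CPM. OTX2 was at 8.56 and 9.27 CPM at day 4 and 11.4 and 12.3 CPM at day 6 and did not pass the test (adjusted p = 0.33). In other settings of scaling, filter, samples and tool, ZIC2 lost its call in 3 (log2 0.99 to 0.999) and ZIC5 in 5 (adjusted p 0.051 to 0.14). Without 1 library the call was lost for ZIC2 without day 6 replicate 1 (log2 0.85, adjusted p 0.0074), ZIC5 in each of the 4 omissions (log2 1.17 to 1.42, adjusted p 0.13 to 0.25) and EDNRB without day 4 replicate 1 (log2 0.76, adjusted p 0.12). Leaving out 1 library put the adjusted p over 0.05 for SOX3 without day 4 replicate 1 (0.2), day 6 replicate 1 (0.057) or day 6 replicate 2 (0.063).

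On the naive side, 1 of 23 listed genes was called lower and 0 higher, beside 0.54% and 1.97% of all genes, with a median log2 of -0.44, or -0.33 without the 2 genes at or under 3 counts on both days. SUSD2, the surface marker used to sort naive cells, was at 76.03 and 73.95 CPM at day 4 and 29.5 and 29.6 CPM at day 6 (log2 -1.34, SE 0.18, adjusted p = 5.1e-06). Its course in E8 was not a plain decline, since its mean was 82.3 ± 0.215 CPM in naive cells and 284 ± 13.2 CPM at day 2. Further naive genes passed the adjusted p with falls under 2-fold. They were KHDC1L (log2 -0.87), NLRP7 (log2 -0.59), FGF4 (log2 -0.60), DNMT3L (log2 -0.58) and the TRIM family member TRIM60 (log2 -0.56). The naive transcription factors KLF17 and TFCP2L1 did not pass the test, KLF17 at 57.2 and 57.4 CPM at day 4 and 38.4 and 45.8 CPM at day 6 and TFCP2L1 at 96.5 and 115 CPM at day 4 and 99.98 and 97.4 CPM at day 6. DPPA5 and DPPA3 stood at log2 -0.21 and -0.33 and also missed the threshold. With 1 library left out the adjusted p was over 0.05 for FGF4 in each of the 4 omissions (0.054 to 0.12), DNMT3L without day 4 replicate 2 (0.15) or day 6 replicate 1 (0.22) and TRIM60 without day 4 replicate 1 (0.14) or day 6 replicate 1 (0.2).

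General pluripotency genes gave 0 calls of 12, beside 2.51% of all genes, with a median log2 of -0.24. At an adjusted p of 0.05 without the fold limit, ZFP42 alone was lower, at 169.6 and 160.3 CPM at day 4 and 130.2 and 131 CPM at day 6 (log2 -0.34, adjusted p = 0.031). POU5F1 was at 629 and 604 CPM at day 4 and 485 and 524 CPM at day 6, NANOG at 899 and 994 CPM at day 4 and 956 and 925 CPM at day 6 and SOX2 at 363 and 353 CPM at day 4 and 275 and 304 CPM at day 6. The log2 values of these 3 core factors were -0.29, SE 0.29 for POU5F1, -0.01, SE 0.11 for NANOG and -0.30, SE 0.11 for SOX2. The adjusted p of the fall was over 0.05 for ZFP42 in each of the 4 omissions (0.08 to 0.24).

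DNA methylation genes had 0 of 10 called and 4 within the adjusted p, all lower. They were the de novo methyltransferases DNMT3A, at 261 and 283 CPM at day 4 and 200.4 and 188 CPM at day 6 (log2 -0.49), and DNMT3B, at 1287 and 1374 CPM at day 4 and 967 and 954 CPM at day 6 (log2 -0.47), their cofactor DNMT3L, and UHRF1, which recruits the maintenance enzyme, at 58.7 and 59.8 CPM at day 4 and 41.5 and 43.9 CPM at day 6 (log2 -0.47). None of these falls reached 2-fold. Each of the 4 lost the adjusted p in at least 1 omission of a library, DNMT3A without day 4 replicate 2 (0.053) or day 6 replicate 2 (0.06), DNMT3B without day 4 replicate 2 (0.0501), DNMT3L without day 4 replicate 2 (0.15) or day 6 replicate 1 (0.22) and UHRF1 in each of the 4 omissions (0.11 to 0.23).

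The muscle-type actins ACTC1, ACTA1 and ACTG2 were called higher, with several proteins that bind actin. This grouping was made after the values were seen and carries no test of its own. ACTC1, cardiac α-actin (chr15:34790107-34795589, minus strand), was at 34.5 and 27.02 CPM at day 4 and 117 and 127 CPM at day 6, and ACTA1, skeletal α-actin (chr1:229430365-229434104, minus strand), at 72.9 and 74.7 CPM at day 4 and 234 and 228 CPM at day 6. The rises were 3.97-fold for ACTC1 (log2 1.99, SE 0.16, adjusted p = 6.7e-10) and 3.13-fold for ACTA1 (log2 1.65, SE 0.17, adjusted p = 4.8e-08). ACTG2, the enteric smooth muscle actin, went from 10.9 and 12.6 CPM to 29.2 and 31.6 CPM (log2 1.37, SE 0.23, adjusted p = 1.4e-04). The cytoplasmic actins, present in every cell, gave no call, with ACTB at 1209 and 1082 CPM at day 4 and 1176 and 1203 CPM at day 6 (log2 0.06) and ACTG1 at 2838 and 3162 CPM at day 4 and 3589 and 3562 CPM at day 6 (log2 0.25). ACTA2, the vascular smooth muscle actin, was low, at 0.627 and 1.77 CPM at day 4 and 2.898 and 4.78 CPM at day 6, and missed the threshold (adjusted p = 0.096). Actin genes are near-identical in their coding parts, and their untranslated ends, which QuantSeq reads, differ more. How the counting treated shared reads is not known.

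Among 19 actin-binding and myosin proteins gathered in the same way, 6 were called higher and 0 lower. Of all genes 1.97% and 0.54% were, and the choice by value raises the count of this group. CALD1, caldesmon, had the most counts of the called genes, at 656 and 591 CPM at day 4 and 1444 and 1412 CPM at day 6 (log2 1.197, SE 0.11, adjusted p = 3.4e-09). TAGLN, transgelin, was at 109 and 106 CPM at day 4 and 226 and 216 CPM at day 6 (log2 1.04, SE 0.15, adjusted p = 3.0e-05). MYL9, a regulatory light chain of non-muscle and smooth muscle myosin, rose from 13.4 and 12.4 CPM to 38.2 and 40.5 CPM (log2 1.61, SE 0.21, adjusted p = 4.0e-06). Calponin CNN1 (log2 1.02), the light chain kinase MYLK (log2 1.07) and titin, TTN (log2 1.07), were the other 3. TTN overlaps an antisense gene, and whether counting used strand is not known. The tropomyosins TPM1 and TPM2, vinculin VCL and the heavy chain MYH10 passed the adjusted p under 2-fold, at log2 0.68, 0.74, 0.44 and 0.33. Calls were lost without 1 library for CNN1 without day 4 replicate 2 (log2 0.99, adjusted p 0.039), MYLK without day 6 replicate 1 (log2 0.81, adjusted p 0.061) and TTN without day 4 replicate 2 (log2 0.99, adjusted p 0.015). The adjusted p was over 0.05 for MYH10 in each of the 4 omissions (0.08 to 0.15).

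The promoters of several of these genes hold a CArG box, the site bound by serum response factor (SRF), which is known to control actin genes. They are shown because the box is shared by called actins and by ACTG1, which was not called. The box was searched by its full consensus, which reads the same on both strands, in the 250 bases before the annotated start. It was found in 1.16% of 35116 RefSeq promoters (GRCh38.p14), and in at least 1 promoter of 1.48% of 10818 tested genes and of 3.78% of 238 genes called higher. ACTA1, ACTG2 and MYLK had 1 promoter each in the table, and ACTC1 had 3, of which 1 holds the box. CNN1, CALD1, TTN and ACTA2 had a promoter with no match, and TAGLN, MYL9 and ACTB were not in the table. A match describes the letters in this window and is not a measured binding site. Capitals mark the box, which begins 97, 109, 94 and 94 bases before the start in ACTA1, ACTC1, ACTG1 and MYLK, while ACTG2 has 2 boxes, at 110 and 73 bases. The stretches are ACTA1 chr1:229434095-229434344, minus strand, ACTC1 chr15:34795550-34795799, minus strand, ACTG2 chr2:73892758-73893007, plus strand, MYLK chr3:123620549-123620798, minus strand and ACTG1 chr17:81512800-81513049, minus strand.
ACTA1: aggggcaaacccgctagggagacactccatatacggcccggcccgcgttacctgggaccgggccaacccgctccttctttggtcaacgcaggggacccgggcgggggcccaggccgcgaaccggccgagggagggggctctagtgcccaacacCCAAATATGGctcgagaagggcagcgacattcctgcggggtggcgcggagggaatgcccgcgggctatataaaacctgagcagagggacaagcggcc
ACTC1: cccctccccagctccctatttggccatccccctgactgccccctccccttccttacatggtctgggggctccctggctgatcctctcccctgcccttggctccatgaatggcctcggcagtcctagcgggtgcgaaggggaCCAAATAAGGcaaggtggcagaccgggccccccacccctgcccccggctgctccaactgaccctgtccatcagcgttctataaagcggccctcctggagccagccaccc
ACTG2: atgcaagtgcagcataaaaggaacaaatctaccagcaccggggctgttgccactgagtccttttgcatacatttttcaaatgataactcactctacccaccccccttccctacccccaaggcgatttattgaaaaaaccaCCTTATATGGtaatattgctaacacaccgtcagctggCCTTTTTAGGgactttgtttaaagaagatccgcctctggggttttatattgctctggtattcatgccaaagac
MYLK: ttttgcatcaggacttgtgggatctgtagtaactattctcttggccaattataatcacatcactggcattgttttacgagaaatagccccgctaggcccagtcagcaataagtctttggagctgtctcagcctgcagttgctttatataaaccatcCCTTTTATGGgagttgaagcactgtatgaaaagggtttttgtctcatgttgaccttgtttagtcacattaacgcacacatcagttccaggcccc
ACTG1: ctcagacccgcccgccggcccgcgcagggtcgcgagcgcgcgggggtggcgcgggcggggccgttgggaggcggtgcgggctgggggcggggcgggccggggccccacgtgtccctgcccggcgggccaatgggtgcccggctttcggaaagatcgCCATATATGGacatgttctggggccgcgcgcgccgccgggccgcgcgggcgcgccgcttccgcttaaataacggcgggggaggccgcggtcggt
SRF itself was at 197 and 244 CPM at day 4 and 324 and 322 CPM at day 6 and missed the threshold (log2 0.55, SE 0.23, adjusted p = 0.17).

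**Figure D2:**
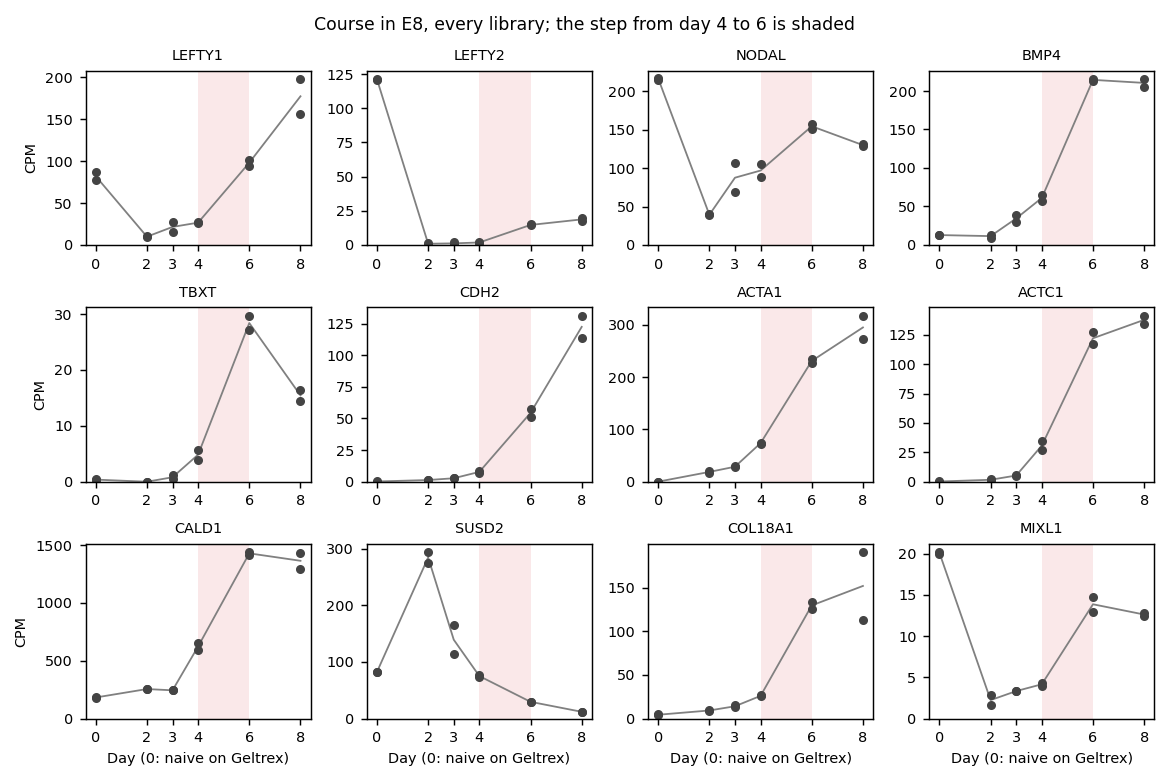
CPM on linear axes against day in E8 for 12 genes, each point a library, lines through the means, with naive cells on Geltrex at day 0 and the step from day 4 to 6 shaded. NODAL, LEFTY2 and MIXL1 are highest in naive cells, TBXT is highest at day 6, and CALD1 and BMP4 are no higher on average at day 8 than at day 6.

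Matrix genes were a further group. Of 20 tested extracellular matrix genes, 3 were called higher and 0 lower, beside 1.97% and 0.54% of all genes. The median log2 was 0.50, or 0.62 when bounds replaced the values of genes at the floor. COL18A1, the basement membrane collagen that is cut to release endostatin, was at 25.3 and 26.6 CPM at day 4 and 126 and 133 CPM at day 6, a 4.98-fold rise (log2 2.32, SE 0.19, adjusted p = 3.9e-10). COL1A1, fibrillar collagen, stood at 31.1 and 32.7 CPM at day 4 and 69.1 and 58.96 CPM at day 6 (log2 1.002, SE 0.16), at the 2-fold limit, and COL5A2 at 2.298 and 2.96 CPM at day 4 and 8.69 and 6.602 CPM at day 6 (log2 1.52, SE 0.37). Fibronectin FN1 and the type IV collagens COL4A1 and COL4A2 passed the adjusted p under 2-fold, at log2 0.78, 0.75 and 0.93. Over all 31 collagen chains that were tested, a family taken after the values were seen, 9 were called higher and 0 lower. The other 6 were low, with COL11A1 and COL4A6 reaching 8.21 and 10.2 CPM and 8.94 and 7.28 CPM at day 6. COL6A3 had 1 and 1 counts at day 4, so that its rise is at least 3.54-fold. The call of COL1A1 was lost in 6 other settings of scaling, filter, samples and tool, at log2 0.98 to 0.999. Leaving out 1 library removed the call for COL1A1 without day 6 replicate 1 (log2 0.88, adjusted p 0.0063) or day 4 replicate 1 (log2 0.97, adjusted p 0.0052), COL5A2 without day 6 replicate 1 (log2 1.32, adjusted p 0.13) or day 4 replicate 1 (log2 1.36, adjusted p 0.12), COL11A1 without day 4 replicate 2 (log2 1.46, adjusted p 0.052), COL4A6 without day 4 replicate 1 (log2 1.65, adjusted p 0.13), COL22A1 without day 4 replicate 1 (log2 1.82, adjusted p 0.066) or day 4 replicate 2 (log2 1.89, adjusted p 0.051), COL4A5 without day 6 replicate 2 (log2 2.16, adjusted p 0.072) or day 4 replicate 1 (log2 1.75, adjusted p 0.18), COL8A1 in each of the 4 omissions (log2 1.63 to 2.18, adjusted p 0.06 to 0.15) and COL6A3 in each of the 4 omissions (log2 3.09 to 3.45, adjusted p 0.1 to 0.22). For FN1 the adjusted p was over 0.05 with 1 library left out, that is FN1 in each of the 4 omissions (0.063 to 0.14). Larger values came from COL11A1 without day 4 replicate 1 (log2 3.19) and COL4A6 without day 4 replicate 2 (log2 3.63).

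SPP1, osteopontin, a secreted matrix protein, was at 307 and 296 CPM at day 4 and 888 and 893 CPM at day 6 (log2 1.56, SE 0.13, adjusted p = 1.4e-09). Other large rises were DTNA, α-dystrobrevin, at 6.06 and 4.73 CPM at day 4 and 38.2 and 39.4 CPM at day 6, and the forkhead factor FOXC2 at 5.64 and 8.68 CPM at day 4 and 35.3 and 30.3 CPM at day 6. AXL, a receptor tyrosine kinase, went from 6.27 and 5.72 CPM to 27.8 and 25.95 CPM (log2 2.16, SE 0.30, adjusted p = 1.2e-05). It was the 1 called gene among 18 tested YAP and TEAD genes, where 2.51% of all genes were called. This list holds targets and also the factors themselves, and in it CYR61 (now CCN1) passed the adjusted p at log2 0.77. The membrane traffic genes RAB17 and SYTL2 rose 3.42-fold and 4.08-fold, and RASGRF2, an exchange factor for RAS and RAC, 2.12-fold. SHLD2P1, a pseudogene that can share reads with its parent gene, was at 3.55 and 5.92 CPM at day 4 and 21.7 and 22.1 CPM at day 6, and 1 more of the largest rises had only a clone name.

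Amino acid stress genes controlled by ATF4 moved together in sign. All 24 had a positive log2 value, 13 passed the adjusted p and 4 were called higher, with a median log2 of 0.52. Over all genes, 4.8% passed the adjusted p upwards and 1.97% were called higher. The same list had 24 positive values in mTeSR and 21 in N2B27, with medians of 0.59 and 0.37. CHAC1, which degrades glutathione, was at 61.8 and 74.2 CPM at day 4 and 158 and 146 CPM at day 6 (log2 1.16, SE 0.16, adjusted p = 1.3e-05). GDF15, a secreted stress cytokine, was at 120.3 and 115 CPM at day 4 and 273 and 239.9 CPM at day 6 (log2 1.13, SE 0.14, adjusted p = 1.3e-06). The mTORC1 inhibitor DDIT4 rose from 32.4 and 37.7 CPM to 71.00 and 74.2 CPM and the lipoprotein receptor VLDLR from 14.4 and 10.8 CPM to 25.1 and 26.9 CPM. ATF4 itself was at 674 and 705 CPM at day 4 and 1031 and 1027 CPM at day 6, within the adjusted p and under 2-fold (log2 0.58, adjusted p = 0.0023). The serine synthesis enzyme PSAT1 gave log2 0.70 (adjusted p = 0.0012). Of 18 p53 targets, 3 were called higher, with a median log2 of 0.42: CDKN1A, the p21 cell cycle inhibitor, at 29.9 and 28.8 CPM at day 4 and 74.1 and 69.7 CPM at day 6 (log2 1.29, SE 0.19, adjusted p = 1.8e-05), the antiproliferative gene BTG2 (log2 1.13), and GDF15, which is in both lists. Calls were lost without 1 library for DDIT4 without day 4 replicate 1 (log2 0.95, adjusted p 0.023), VLDLR without day 6 replicate 2 (log2 0.99, adjusted p 0.023) or day 4 replicate 2 (log2 0.85, adjusted p 0.055) and BTG2 without day 6 replicate 1 (log2 1.01, adjusted p 0.11), day 4 replicate 1 (log2 1.12, adjusted p 0.077) or day 4 replicate 2 (log2 1.14, adjusted p 0.064). The adjusted p was over 0.05 for ATF4 without day 4 replicate 1 (0.052).

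In the list of genes that respond to low oxygen, 15 of 15 tested had a positive value and 1 was called, with a median log2 of 0.50. All 15 were positive in mTeSR too, and 13 in N2B27. Of all genes, 1.97% were called higher in E8 and 4.8% passed the adjusted p upwards. The called gene was ADM, the vasodilator peptide adrenomedullin, at 21.9 and 21.5 CPM at day 4 and 77.5 and 88.6 CPM at day 6 (log2 1.93, SE 0.19, adjusted p = 1.3e-08). VEGFA was at 46.2 and 44.96 CPM at day 4 and 71.2 and 76.3 CPM at day 6 (log2 0.70, adjusted p = 0.0012), under the 2-fold limit. Glycolysis had 0 of 22 called and 4 higher within the adjusted p, among them LDHA, lactate dehydrogenase, at log2 0.79 and the glucose transporter SLC2A3 at log2 0.68. TXNIP, which restrains glucose uptake and is induced by glucose, rose from 13.2 and 16.6 CPM to 34.1 and 34.4 CPM (log2 1.199, SE 0.18, adjusted p = 4.0e-05). Leaving out 1 library put the adjusted p over 0.05 for LDHA without day 4 replicate 1 (0.095) or day 6 replicate 1 (0.063).

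**Figure D3:**
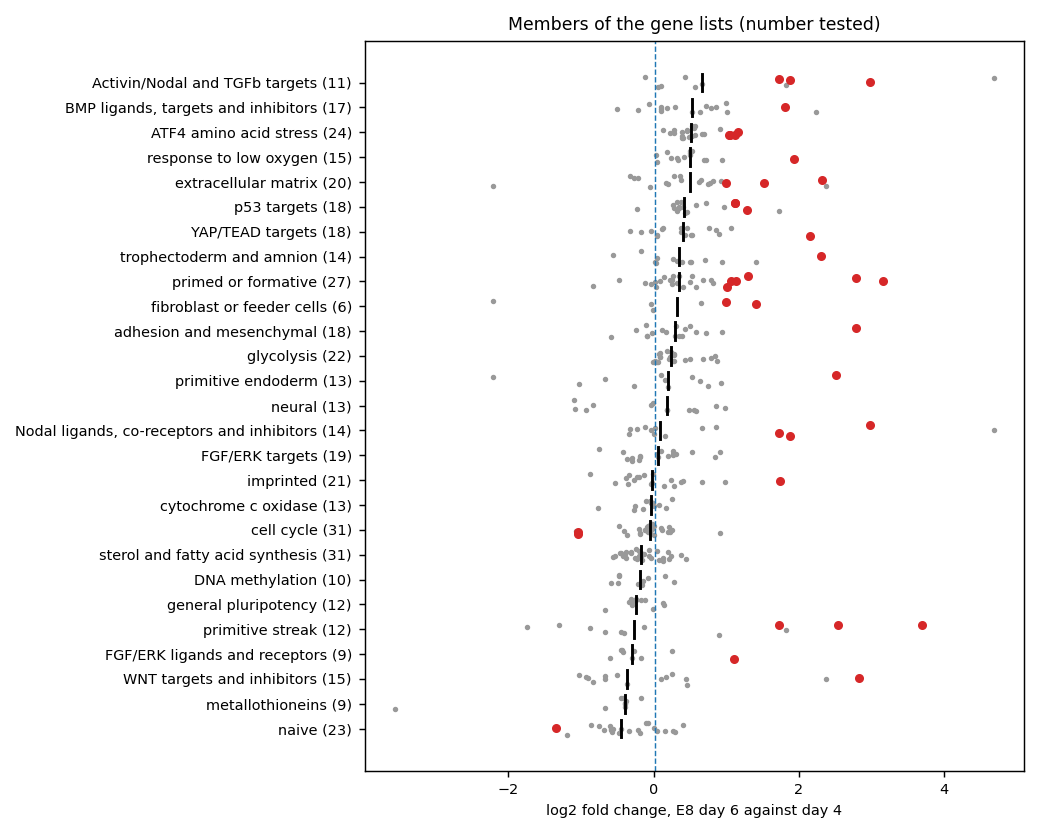
Log2 fold change from day 4 to day 6 in E8 for the tested members of each gene list with at least 6 of them, leaving out the families gathered after their values were seen, red for genes called, grey for the others, black bars for list medians and a dashed line at the median of all genes, 0.02. Called genes lie to the right in most lists, to the left in the cell cycle and naive lists, and the naive list has a median of -0.44, or -0.33 without genes at the floor.

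Other signalling lists gave 0 or 1 call each, where 2.51% of all genes were called. Among 9 tested FGF ligands and receptors, FGFRL1, a receptor without a kinase domain, was called higher, from 7.52 and 7.49 CPM to 16.7 and 15.9 CPM (log2 1.12, SE 0.24, adjusted p = 0.0031). FGFR3 was lower under 2-fold (log2 -0.44, adjusted p = 0.021). Targets of FGF and ERK had 0 of 19 called, with ETV5 at log2 0.85, CCND1 at log2 0.92 and DUSP6 at log2 0.53 within the adjusted p. WNT targets and inhibitors had 1 of 15 called. SP5, a zinc finger target of WNT, went from 2.51 and 2.56 CPM to 18.1 and 18.4 CPM (log2 2.84, SE 0.38, adjusted p = 7.5e-06), whereas AXIN2, the feedback target most used as a reporter of the pathway, was lower at 36.8 and 43.2 CPM at day 4 and 19.6 and 22.5 CPM at day 6 (log2 -0.92, SE 0.21, adjusted p = 0.0046), short of 2-fold. LEF1 and NKD1 did not pass the test, at 9 and 4 and 12 and 21 counts at day 4 and 4 and 3 and 20 and 14 counts at day 6. With 1 library left out the adjusted p was over 0.05 for DUSP6 without day 4 replicate 1 (0.53), day 6 replicate 1 (0.14) or day 6 replicate 2 (0.23), FGFR3 without day 4 replicate 1 (0.24) or day 6 replicate 1 (0.29) and AXIN2 without day 4 replicate 2 (0.075) or day 6 replicate 1 (0.095), and the log2 value of DUSP6 lay between 0.297 and 0.83.

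In the cell cycle list, 2 of 31 genes were called lower and 0 higher, beside 0.54% and 1.97% of all genes, with a median log2 of -0.05. CCND3, a D-type cyclin, was at 56.4 and 60.1 CPM at day 4 and 28.01 and 28.5 CPM at day 6 (log2 -1.04, SE 0.13, adjusted p = 1.4e-06), while CCND1 went the other way, at 111 and 133 CPM at day 4 and 241 and 222 CPM at day 6. CCNE2, an E-type cyclin, had 25 and 42 counts at day 4 and 13 and 15 at day 6. Sterol and fatty acid synthesis had 0 of 31 called, cytochrome c oxidase 0 of 13, and metallothioneins 0 of 9, with 6 metallothioneins lower within the adjusted p, for example MT1G at 1377 and 1359 CPM at day 4 and 1071 and 1005 CPM at day 6. Of 21 imprinted genes, IGF2 alone was called, at 11 and 18 counts at day 4 and 44 and 40 at day 6, while NNAT passed the adjusted p just under 2-fold (log2 0.99, adjusted p = 3.5e-06). Leaving out 1 library removed the call for CCND3 without day 4 replicate 2 (log2 -0.997, adjusted p 1.7e-04), CCNE2 without day 6 replicate 1 (log2 -0.98, adjusted p 0.2), day 6 replicate 2 (log2 -1.102, adjusted p 0.13) or day 4 replicate 2 (log2 -0.67, adjusted p 0.4) and IGF2 in each of the 4 omissions (log2 1.47 to 2.09, adjusted p 0.056 to 0.21). MT1G had an adjusted p over 0.05 when 1 library was left out, that is MT1G without day 4 replicate 1 (0.065) or day 6 replicate 2 (0.1).

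Markers of other cell types were low or mixed, and their calls stand beside 1.97% of all genes called higher. The trophectoderm and amnion list had 1 of 14 called, ENPEP, a membrane aminopeptidase, which went from 3.97 and 2.96 CPM to 18.6 and 15.9 CPM (log2 2.31, SE 0.28, adjusted p = 1.1e-06), while GATA3 was at 22.8 and 21.1 CPM at day 4 and 28.7 and 28.9 CPM at day 6 (log2 0.39) and did not pass the test. The primitive endoderm list had 1 of 13, GATA6, with 1 and 2 counts at day 4 and 7 and 9 at day 6, which is at least 2.98-fold higher, and SOX17, APOA1 and HNF4A were at or under 3 counts in all 4 libraries. The neural list had 0 of 13 called, with NNAT, TUBB3 (log2 0.59) and NEFM (log2 0.86) within the adjusted p, and SOX1 and SIX3 at or under 3 counts. Of 7 fibroblast or feeder markers, which summed to 72.7 to 83.03 CPM at day 4 and 138 to 139 CPM at day 6, COL3A1, LUM and DCN were at or under 3 counts in the 4 libraries. The fibroblast list gave 2 calls of 6 tested, COL1A1 and PDGFRB, the latter with 12 and 13 counts at day 4 and 27 and 31 at day 6. Of 12 genes of definitive tissues, TNNT2 alone was tested, at 5.43 and 6.11 CPM at day 4 and 8.94 and 9.33 CPM at day 6. Calls were lost for GATA6 in each of the 4 omissions (log2 2.17 to 3.004, adjusted p 0.056 to 0.19) and PDGFRB in each of the 4 omissions (log2 1.35 to 1.47, adjusted p 0.15 to 0.22). The adjusted p was over 0.05 for NEFM in each of the 4 omissions (0.11 to 0.32) and TUBB3 without day 4 replicate 1 (0.061) or day 6 replicate 2 (0.058).

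The falls were fewer than the rises, with a median log2 of -1.55 against 1.44 over the genes called. Among protein-coding genes above 20 CPM, SAMHD1, which hydrolyses deoxynucleotides, was at 89.2 and 101 CPM at day 4 and 39.4 and 45.3 CPM at day 6 (log2 -1.17, SE 0.16, adjusted p = 1.3e-05). SLCO4C1, an organic anion transporter, fell from 28.8 and 31.2 CPM to 13.5 and 11.6 CPM (log2 -1.26, SE 0.22) and FUT8, the core fucosyltransferase, from 22.3 and 23.9 CPM to 8.69 and 10.9 CPM (log2 -1.23, SE 0.27). TNFRSF8, the CD30 antigen, was at 43.03 and 57.6 CPM at day 4 and 23.2 and 22.99 CPM at day 6 (log2 -1.12, SE 0.20), and EDEM3, which helps to clear misfolded glycoproteins, at 57.4 and 51.7 CPM at day 4 and 24.1 and 29.4 CPM at day 6 (log2 -1.02, SE 0.14). CDC42EP4, an effector of CDC42, and the zinc finger gene ZNF625 fell by similar amounts, with log2 values of -1.09 and -1.096. Tag counts are uncertain for genes that are copied many times or lack a poly(A) tail of their own. The largest falls among called genes with at least 20 CPM and no overlap also included such genes. They were the ribosomal RNA gene RNA5-8SN2 (log2 -1.96), the mitochondrial tRNA gene MT-TN (log2 -1.62), the mitochondrial pseudogene MTCO2P2 (log2 -1.59), NPIPB5 of a segmentally duplicated family (log2 -1.16) and 2 genes with clone names. Calls were lost without 1 library for FUT8 without day 6 replicate 1 (log2 -1.08, adjusted p 0.081), TNFRSF8 without day 4 replicate 2 (log2 -0.90, adjusted p 0.025), EDEM3 without day 6 replicate 1 (log2 -0.89, adjusted p 0.0018) or day 4 replicate 1 (log2 -0.95, adjusted p 7.5e-04), CDC42EP4 without day 6 replicate 1 (log2 -1.15, adjusted p 0.057), day 6 replicate 2 (log2 -1.03, adjusted p 0.091) or day 4 replicate 1 (log2 -1.01, adjusted p 0.083), ZNF625 in each of the 4 omissions (log2 -1.14 to -1.06, adjusted p 0.056 to 0.12), MTCO2P2 without day 6 replicate 1 (log2 -1.35, adjusted p 0.14) or day 4 replicate 1 (log2 -1.24, adjusted p 0.16), NPIPB5 without day 6 replicate 1 (log2 -1.11, adjusted p 0.16), day 6 replicate 2 (log2 -1.23, adjusted p 0.1) or day 4 replicate 1 (log2 -0.93, adjusted p 0.23) and RNA5-8SN2 in each of the 4 omissions (log2 -2.04 to -1.88, adjusted p 0.12 to 0.24).

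The same 2 days in other media asked whether the step was that of E8. From day 4 to day 6, 648 genes were called in N2B27 (3.89%) and 486 in mTeSR (2.91%), with no library shared with the E8 step. Higher at day 6 were 3.08% of all genes in N2B27 and 2.29% in mTeSR, and lower were 0.81% and 0.624%. Of the 329 genes called higher in E8, 127 were also called higher in N2B27, which is 38.6% of the E8 genes and 24.8% of the N2B27 genes. For mTeSR 114 were shared, 34.7% of the E8 genes and 29.8% of the mTeSR genes. Of the 90 genes called lower in E8, 19 were called lower in each other medium, 21.1% of the E8 genes in both cases. None was called in the opposite direction. The genes called higher in E8 had a median log2 of 1.44 there, against 0.90 in N2B27 and 0.94 in mTeSR, where the choice of genes in E8 raises the first value. Across 16674 genes the fold changes of the E8 step had a Spearman correlation of 0.42 with those of the N2B27 step and 0.51 with those of the mTeSR step, as a description without a test.

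The difference between steps, tested as an interaction, was called for 30 genes against N2B27 (0.18%), 14 with a higher (0.084%) and 16 with a lower value (0.096%) in E8. LEFTY2 led the higher ones. Its step was log2 2.99, SE 0.45 in E8 and -0.75, SE 0.23 in N2B27, a difference of 3.74, SE 0.51 (adjusted p = 2.0e-04). For LEFTY1 the difference was 2.02, SE 0.26 (adjusted p = 1.4e-04). The starting levels differed too, since N2B27 held 130.1 ± 1.81 CPM of LEFTY1 at day 4 and 118 ± 7.597 CPM at day 6 (mean ± SD, 2 libraries each), above the 4 E8 libraries. LEFTY2 in N2B27 was at 55.9 ± 4.800 CPM and 33.2 ± 1.08 CPM. In mTeSR both LEFTY genes rose, at log2 1.46, SE 0.19 and 3.38, SE 0.34, and the difference from the E8 step did not pass the test (adjusted p = 0.96 and 1). The difference of both genes from N2B27 kept its call in each of the 8 omissions of 1 library.

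FLT1, a VEGF receptor, at 16.5 and 22.3 CPM at day 4 and 52.4 and 55.3 CPM at day 6 in E8, and STOX2, a winged-helix gene, at 12.3 and 14.2 CPM at day 4 and 29.5 and 28.2 CPM at day 6, rose in E8 with differences from N2B27 of 1.68, SE 0.29 and 1.603, SE 0.26. The naive factor KLF4 gave log2 -0.07 in E8 and -1.35 in N2B27 (adjusted p of the difference = 0.023). On the lower side were RHOBTB3, an ATPase of the Golgi, with a step of 0.36 in E8 and 3.397 in N2B27, and TFPI, an inhibitor of coagulation, with -0.69 and 0.86. MIR205HG, the host transcript of a microRNA, rose in both media, at log2 1.49 in E8 and 2.65 in N2B27. Among list genes, the WNT antagonist SFRP1 also had a called difference, at -1.98 (adjusted p = 0.0033), while BMP2 was at or under 3 counts in all 4 E8 libraries, so that its step in E8 was not measured and no difference is given. STOX2 and RHOBTB3 kept the call in all 8 omissions of 1 library, while FLT1 lost it in 1 (adjusted p 0.059), TFPI in 2 (up to 0.06), SFRP1 in 2 (up to 0.076), KLF4 in 7 (up to 0.16) and MIR205HG in 8 (up to 0.3).

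Against mTeSR, 15 genes had a called difference (0.09%), 5 higher (0.03%) and 10 lower (0.06%) in E8. The 5 higher genes were BMP4, ACTC1, MYL9, TPM2 and CCDC81, a coiled-coil gene. CCDC81 itself was lower at day 6 in E8, at log2 -0.91, and fell further in mTeSR. BMP4 rose by log2 1.81, SE 0.13 in E8, 0.65, SE 0.14 in mTeSR and 0.55, SE 0.14 in N2B27, with differences of 1.16, SE 0.19 from mTeSR (adjusted p = 0.0042) and 1.27, SE 0.19 from N2B27 (adjusted p = 5.9e-04). ACTC1 had differences of 1.13, SE 0.23 and 1.25, SE 0.24 (adjusted p = 0.033 and 0.0084), and CALD1 differed from N2B27 alone at the 2-fold limit, by 1.01, SE 0.15 (adjusted p = 5.9e-04). For ACTA1 neither difference was called, at 0.78, SE 0.25 from N2B27 and 0.96, SE 0.24 from mTeSR. With 1 of 8 libraries left out, BMP4 kept its difference from N2B27 in all 8 cases and lost that from mTeSR without E8 day 4 replicate 1 (adjusted p 0.056), mTeSR day 6 replicate 2 (0.055) or mTeSR day 4 replicate 2 (0.11, log2 0.98). ACTC1 lost its difference from N2B27 in 4 cases (up to 0.096) and from mTeSR in 7 (up to 0.3), and CALD1 fell to log2 0.93 to 0.998 in 3. The differences from mTeSR were lost in 7 cases for MYL9 (up to 0.15) and CCDC81 (up to 0.18) and in 8 for TPM2 (up to 0.299), and 2 to 8 of such calls were made in all with 1 library left out.

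The 10 lower genes included PDK1, NDRG1, BNIP3L and P4HA1 of the low oxygen list. PDK1, which restricts pyruvate entry into mitochondria, was at 16.7 and 15.2 CPM at day 4 and 20.3 and 17.3 CPM at day 6 in E8, with a step of 0.24, SE 0.23, against 1.93, SE 0.21 in mTeSR (adjusted p of the difference = 0.014). The hypoxia-induced genes NDRG1 and FAM162A gave steps of 0.04 and 0.47 in E8 and 1.44 and 1.59 in mTeSR. Over the whole low oxygen list, 8 of 15 genes were called higher in mTeSR and 1 in E8 and in N2B27 each, with medians of 1.06, 0.50 and 0.30. MXI1, an antagonist of MYC, the neuritin gene NRN1 and TPD52 completed the genes named by rule, with differences of -1.67, -1.62 and -1.07. With 1 of 8 libraries left out, the call was lost in 7 cases for PDK1 (adjusted p up to 0.16), 6 for NDRG1 (up to 0.22), 8 for FAM162A (up to 0.3), 8 for BNIP3L (up to 0.12) 8 for NRN1 (up to 0.35), 1 each for MXI1 (0.061) and TPD52 (log2 -0.99) and 4 for P4HA1, where log2 stayed between -0.9996 and -0.95.

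**Figure D4:**
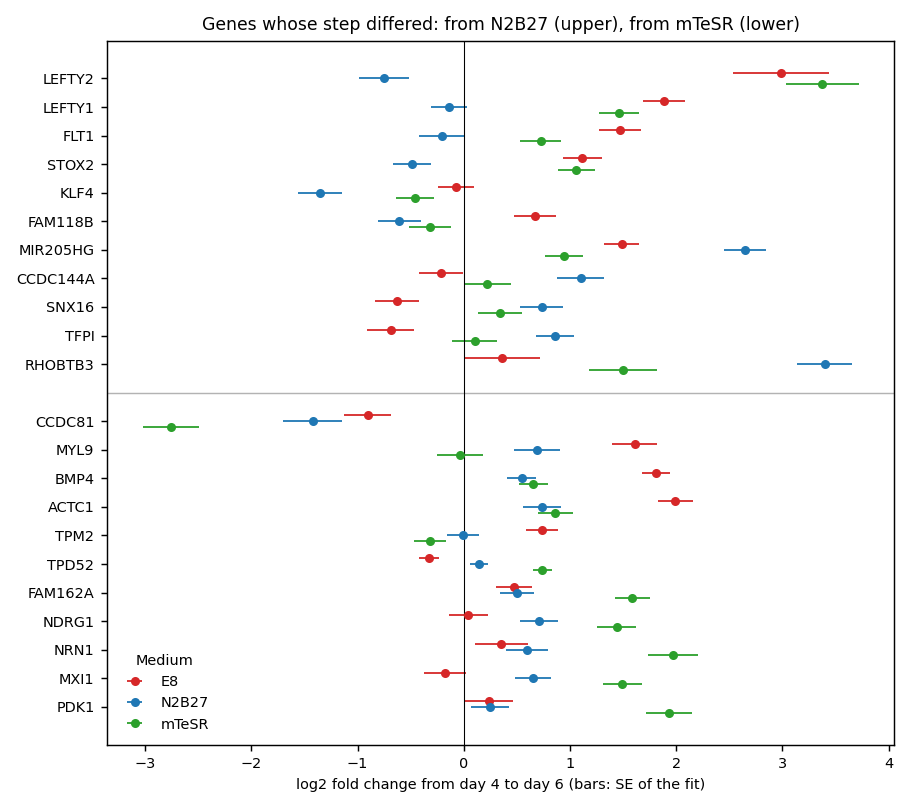
Log2 fold change from day 4 to day 6 in E8, N2B27 and mTeSR with standard errors of the fit, for 11 genes named for a difference from N2B27 (upper block) and 11 for a difference from mTeSR (lower block). LEFTY1 and LEFTY2 rise in E8 and mTeSR and not in N2B27, and PDK1 rises by log2 1.93 in mTeSR against 0.24 in E8.

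Several lists differed in count between the media without a test of the list. Over all genes, 1.97% were called higher in E8, 3.08% in N2B27 and 2.29% in mTeSR, and 0.54%, 0.81% and 0.624% lower. Streak genes had 3 of 12 called higher in E8 and 6 of 12 in each of N2B27 and mTeSR, with TBXT at log2 2.54 in E8, 1.27 in N2B27 and 2.597 in mTeSR. At day 6 TBXT stood at 28.4 ± 1.85 CPM in E8, 64.2 ± 4.71 CPM in N2B27 and 43.8 ± 8.15 CPM in mTeSR (mean ± SD, 2 libraries). The sum over 4 mesoderm markers, carried by TBXT and MIXL1, reached 40.3 to 44.4 CPM in E8 at day 6, against 160.5 to 168 CPM in N2B27 and 103 to 115 CPM in mTeSR. Primed markers had 6 of 27 called higher in E8, 5 in N2B27 and 4 in mTeSR, with CDH2 at log2 2.797, 3.02 and 2.15. Naive markers had 1 of 23 called lower in E8, 3 in N2B27 and 2 in mTeSR. The BMP list had 1 of 17 called higher in E8, 4 in N2B27 and 5 in mTeSR. Called higher in E8, N2B27 and mTeSR in turn were 3, 6 and 1 of 20 matrix genes, 1, 5 and 2 of 15 WNT genes and 1, 5 and 3 of 13 primitive endoderm genes. In the same order they were 1, 4 and 1 of 18 YAP and TEAD genes, 0, 1 and 5 of 22 glycolysis genes and 0, 3 and 0 of 19 FGF and ERK targets. Families gathered for their E8 values, where a higher count in E8 is built in, had 3, 1 and 0 of 6 for actins, 6, 1 and 0 of 19 for their binding proteins and 9, 8 and 2 of 31 for collagens.

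The steps on either side in E8 called fewer genes, 135 between day 3 and day 4 (0.81%, with 0.69% higher) and 134 between day 6 and day 8 (0.804%), and both share 2 libraries with the step described here. Their own values are given beside it. BMP4 was at 34.5 ± 6.73 CPM at day 3 and 211 ± 6.69 CPM at day 8, and CALD1 at 244 ± 0.517 CPM and 1364 ± 101 CPM. For both the day 8 mean was below the lower library of day 6, but the libraries of day 6 and day 8 overlapped. LEFTY1 had 21.5 ± 8.72 CPM at day 3 and 177 ± 29.9 CPM at day 8, and CDH2 2.76 ± 0.1805 CPM and 122 ± 12.5 CPM, both still above day 6 at day 8. TBXT was at 0.805 ± 0.555 CPM at day 3 and 15.5 ± 1.45 CPM at day 8, under both day 6 libraries. These counts depended on single libraries, with 81 without day 3 replicate 1 and 370 without day 3 replicate 2, and 33 without day 8 replicate 1 and 466 without day 8 replicate 2.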

How the data were processed

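Counts per gene were deposited as raw whole numbers with no normalisation, for 38 libraries and 57133 genes by symbol. Per the labels, the authors prepared QuantSeq 3′ libraries from polyA RNA, and the submitters' processing notes name FastQC 0.11.9, STAR 2.7.10a, Salmon 1.9.0, DESeq2 and hg38. The study's methods add the nf-core rnaseq workflow and tximport. The annotation release and the strand setting are not given in the sources used here.

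Tests were run with edgeR 4.0.16 under R 4.3.3 (filterByExpr, 16674 genes with 99.65% of counts, TMM, quasi-likelihood F-tests in 1 fit of 19 groups of 2, Benjamini-Hochberg adjustment over all genes tested). A gene was called at an adjusted p under 0.05 and an absolute log2 fold change above 1. The standard error (SE) of a log2 value came from the F statistic. Fits were tested on simulated data, where 97% of genes changed by 1.5 and 100% of those changed by 3 on the log2 scale were recovered, with 5 false calls. Changes were planted only in genes well above the floor, and counts were drawn with the spread that the fit itself had estimated. The rates therefore do not cover genes at low levels or a spread unlike that estimate. CPM used TMM-scaled library sizes. The floor was 3 counts, or 0.592 to 0.724 CPM in the 4 E8 libraries, and covers counting error only, since reads without molecular identifiers are not independent molecules. Folds against a day at the floor are lower bounds.

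The comparisons, gene lists and settings were chosen with earlier results of these data known. Genes were named by a rule, namely list genes, the 15 largest rises and 15 largest falls among called genes with at least 20 CPM and no overlap, the 6 largest called step differences in each direction among genes with at least 20 CPM in 1 of the 4 groups compared, and the 10 called genes with the highest mean CPM. Actins, actin-binding proteins, collagens, retinoic acid genes, BNIP3L, P4HA1 and CALD1 as step differences were named after their values were seen. Some listed or rule-named genes are not reported here and were left out of the list counts, not of the fits. Positions are those of GENCODE 44 (GRCh38) by symbol, and 513 of 517 genes had 1 position. Promoter sequences are those of RefSeq (GRCh38.p14). Symbols not in the table were matched through RefSeq synonyms. Replicates differed by more than sampling noise, with a chi-square per degree of freedom of 2.13 at day 4 and 1.35 at day 6. Other settings were RLE scaling, library totals, more than 10 counts in at least 2 libraries, no filter, DESeq2 1.42.0, the compared libraries alone, the replicate number as a block, and leaving out each library.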

Additional observations from a re-analysis of the deposited data

Results flagged for a closer look

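The results listed here are genes whose change from day 4 to day 6 differed between media in a test of the difference itself, 30 genes between E8 and N2B27 and 15 between E8 and mTeSR, and the named genes among them, leaving out BMP2, which was at or under 3 counts in E8. Differences are log2 values of the E8 step minus the other step. Higher in the E8 step than in the N2B27 step were LEFTY2 (3.74), LEFTY1 (2.02), FLT1 (1.68), STOX2 (1.603), KLF4 (1.28), FAM118B (1.28), BMP4 (1.27), ACTC1 (1.25) and CALD1 (1.01). Lower were RHOBTB3 (-3.04), TFPI (-1.55), SNX16 (-1.36), CCDC144A (-1.31), SFRP1 (-1.98) and MIR205HG (-1.16). The calls of LEFTY1, LEFTY2, STOX2, RHOBTB3 and BMP4 held in all 8 omissions of 1 library. FLT1 lost its call in 1 omission, TFPI and SFRP1 in 2, CALD1 in 3 and ACTC1 in 4, and the other 5 lost it in 6 to 8.

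Higher in the E8 step than in the mTeSR step were CCDC81 (1.85), MYL9 (1.64), BMP4 (1.16), ACTC1 (1.13) and TPM2 (1.05). Lower were PDK1 (-1.69), MXI1 (-1.67), NRN1 (-1.62), FAM162A (-1.12), NDRG1 (-1.39), TPD52 (-1.07), BNIP3L (-1.02) and P4HA1 (-1.004). Each of these 13 calls was lost in at least 1 of 8 omissions. MXI1 and TPD52 lost theirs in 1, BMP4 in 3 (log2 0.98 to 1.15, adjusted p 0.055 to 0.11), P4HA1 in 4, and the other 9 in 6 to 8.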

How the results depend on the processing

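The 419 genes called in the E8 step became 262 with DESeq2 and 227 to 294 when 1 library was left out, a design in which the lone library is assumed to vary like the other groups. For the difference from the N2B27 step, 30 genes became 100 without a filter and 119 with the 8 compared libraries alone, and 10 to 24 with 1 library left out. For the difference from the mTeSR step, 15 became 55, 41 and 2 to 8. The N2B27 step (648) gave 411 with DESeq2 and 354 to 605 with 1 library left out, and the mTeSR step (486) gave 322 and 249 to 460. Between E8 day 3 and day 4, 135 became 88 with DESeq2, 9 with the compared libraries alone and 74 to 370 with 1 left out, and between day 6 and day 8, 134 became 258 without a filter, 2 with the compared libraries alone and 33 to 466. The cause of these shifts was not tested. In the other settings each of these 7 counts stayed within 1.5 times.

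None of the 119 genes named in the text that passed the adjusted p changed sign in any setting, while 16 of 53 named genes that did not pass it did, such as TGFBR1 (log2 -0.11 to 0.13) and FOXH1 (-0.077 to 0.11). Of 44 genes within the adjusted p and under 2-fold, 16 kept it in all 4 omissions and 28 lost it in at least 1, and DUSP6, FAM118B, FGFR3, MYH10, NEFM, P4HA1, PMEPA1, SFRP1, TPD52, UHRF1 and ZFP42 lost it in another setting too. Of 75 named genes called in the E8 step, 63 were called with DESeq2, 9 were not (CCNE2, COL1A1, GATA6, HOXB1, IGF2, MEIS2, RNA5-8SN2, STRA6 and ZIC5) and 3 had no adjusted p there (COL6A3, COL8A1 and PDGFRB), while 41 kept their call in all 4 omissions and 34 lost it in at least 1. Without a filter the calls of CCNE2, GATA6, MEIS2 and PDGFRB were lost (adjusted p 0.2, 0.056, 0.097 and 0.067), CNN1 fell to log2 0.995 to 0.999 in 2 settings, and library totals removed the differences of FAM118B, FAM162A and NRN1 (adjusted p 0.054 to 0.056). Replicate numbers did not pair the libraries, with correlations of deviations of -0.044 to 0.093, and the fit with the replicate number as a block called 415 genes in the E8 step, 33 in the difference from N2B27 and 16 in that from mTeSR. At these depths genes at or under 3 counts, such as CER1 at day 4, cannot be ranked.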

Other observations

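Genes of retinoic acid handling and response, gathered after their values were seen and without a test of the group, moved in both directions. CYP26A1, the enzyme that degrades retinoic acid, was at 1.67 and 1.18 CPM at day 4 and 9.901 and 14.3 CPM at day 6 (log2 3.07, SE 0.38, adjusted p = 2.3e-06). It stood at 38.2 ± 8.45 CPM at day 8 and rose in N2B27 and mTeSR too, by log2 2.33 and 2.85. The anterior HOX genes HOXB1 and HOXB2, both direct targets of retinoic acid, were lower at day 6. HOXB2 was at 6.89 and 6.71 CPM at day 4 and 2.17 and 1.37 CPM at day 6 (log2 -1.93, SE 0.38, adjusted p = 0.0012), and HOXB1 had 17 and 11 counts at day 4 and 4 and 1 at day 6. MEIS2, a cofactor of HOX proteins, and STRA6, a membrane receptor in retinol uptake, were also called lower, at 13 and 15 and 31 and 18 counts at day 4 and 2 and 5 and 4 and 8 counts at day 6. The step of HOXB2 in the other media was log2 -0.67, SE 0.38 in N2B27 and -0.67, SE 0.35 in mTeSR, with differences that did not pass the test (adjusted p = 0.46 and 0.75). Of 14 tested genes in this group, 1 was called higher and 4 lower. The cellular carrier CRABP1 and the receptors RARA and RARG did not pass the test, at log2 0.49, 0.11 and 0.38. HOXB1 reached log2 -3.49 without day 6 replicate 1. Calls were lost without 1 library for HOXB1 without day 6 replicate 2 (log2 -1.53, adjusted p 0.31) or day 4 replicate 1 (log2 -1.84, adjusted p 0.26), HOXB2 without day 6 replicate 2 (log2 -1.63, adjusted p 0.053), MEIS2 in each of the 4 omissions (log2 -2.49 to -1.298, adjusted p 0.075 to 0.35) and STRA6 without day 6 replicate 1 (log2 -1.44, adjusted p 0.23), day 6 replicate 2 (log2 -2.34, adjusted p 0.0503) or day 4 replicate 1 (log2 -1.32, adjusted p 0.28).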
